A study of Mus musculus with 4 samples.

Results

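The cells described here are B cells of the mouse left ventricle that carry RNA of both Vpreb3 and Cd24a, a pair of genes best known from immature and transitional B cells. They were picked by UMI counts (unique molecular identifiers, each standing for 1 captured RNA molecule): at least 4 UMIs over the B cell genes Cd79a, Cd79b and Ms4a1, none of Cd3d, Cd3e or Cd3g, at most 2 of C1qa, C1qb and C1qc together, at least 1 UMI each of Vpreb3 and Cd24a, and a UMI in fewer than 2 of the B-1 cell genes Fcrl5, Mzb1, Zbtb32 and Bhlhe41. The rule found 1140 cells among 11148 leukocytes, of which 5139 passed the B cell gate. The 3864 B cells that passed the same gate and B-1 limit but lacked a UMI of Vpreb3, of Cd24a or of both are called the other B cells. These thresholds chose the cells, so levels of the rule's own genes are given only as a description.

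Leukocytes came from perfused, enzyme-digested left ventricles of C57Bl6J mice under DOCA-salt, a hypertension model that combines the mineralocorticoid deoxycorticosterone acetate with salt, or after sham treatment; age, sex and duration are not given in the sources used here. CD45-bearing cells were enriched with beads, marked with 1 of 4 hashtag antibodies per mouse, stained with 16 surface antibodies, pooled by group, sorted as live single CD45+ cells and sequenced from the 5' end of the RNA. All 4 DOCA-salt mice are in 1 library and all 4 sham mice in the other, so treatment and library cannot be told apart in any comparison between them. The libraries held 7600 DOCA-salt and 4359 sham barcodes, of which 7030 and 4118 were kept and assigned to a mouse; 41 barcode sequences occurred in both libraries, 38 of them among the kept cells of both and 0 among the cells described here.

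Newly formed B cells leave the bone marrow as transitional cells and complete their maturation mainly in the spleen. In mice they are known for high surface CD24 (heat-stable antigen, the product of Cd24a) and CD93, and for IgM above IgD; CD23 (Fcer2a) and IgD (Ighd) rise as they become follicular cells. Vpreb3 encodes a small immunoglobulin-like protein of B lineage cells that binds nascent immunoglobulin chains.

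In the mm10 assembly Vpreb3 (ENSMUSG00000000903) lies at chr10:75943057-75949657 on the plus strand and Cd24a (ENSMUSG00000047139) at chr10:43578284-43584265 on the plus strand. DOCA-salt mice contributed 216, 151, 61 and 206 of these cells, and sham mice 121, 160, 78 and 147. Their median depth was 3165.5 UMIs in DOCA-salt and 2814.5 UMIs in sham, against 2876 and 2586 UMIs in the other B cells of those groups. A UMI of both genes was found in 22.2% of the DOCA-salt and 23.6% of the sham cells in the B gate. For comparison, T cells were taken with at least 2 UMIs over Cd3d, Cd3e and Cd3g and no UMI of Cd79a, Cd79b or Ms4a1. Cells with UMIs of both lineages were therefore not among them. In DOCA-salt 0 of 701 such cells had both genes (exact 95% upper bound 0.525%, median depth 5421 UMIs). In sham 0 of 322 had both (upper bound 1.14%, median depth 4241 UMIs). These bounds cover counting error only.

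The label transitional-like was met in part. As a description, Vpreb3 averaged 684 ± 126 CPM (UMI counts scaled to a common library total after TMM normalisation) and Cd24a 705 ± 176 CPM in the cells, against 161 ± 30.7 and 209 ± 42.8 CPM in the other B cells (SD, n = 8 mice). Of 15 genes listed for immature and transitional B cells, 4 passed the low-count filter: Ly6d, Spib and Sox4 were higher than in the other B cells and Ebf1 was not called. The precursor genes of the list were at or near 0. Rag1, Rag2, Igll1 and Erg had 0 UMIs in both groups, and Dntt, Vpreb1 and Arpp21 had 0 UMIs in DOCA-salt and 1 UMI each in sham. Cd93, the classical surface marker of transitional cells, had 18 UMIs in all DOCA-salt cells and 7 UMIs in all sham cells. Summed over the cells, the precursor genes and Cd93 were thus scarce, while Ly6d, Spib and Sox4 were higher. How many cells carry the wider set together was not counted, and the cells are called here by the pair that chose them.

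Ly6d, which encodes a GPI-anchored surface protein that marks commitment to the B lineage in mouse lymphoid progenitors, rose in the cells with both genes. It lies at chr15:74762056-74763620 on the minus strand. Over the 8 mice it ran from 2278 CPM to 3970 CPM with a median of 3032 CPM, against 1817 CPM to 2810 CPM with a median of 2306 CPM in the other B cells. The ranges overlap between mice, but within each of the 8 mice the cells with both genes were higher, by a log2 change of 0.43 ± 0.041 (SE; edgeR quasi-likelihood test with the mouse as a block, Benjamini-Hochberg adjusted p = 5.03e-05).

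Spib, an ETS family transcription factor of B cells and plasmacytoid dendritic cells at chr7:44525993-44532071 on the minus strand, ran from 267 CPM to 475 CPM with a median of 304 CPM, against 211 CPM to 265 CPM with a median of 230 CPM in the other B cells. The lowest mouse in the cells with both genes thus exceeded the highest mouse in the other B cells, and the log2 change was 0.45 ± 0.078 (adjusted p = 0.0111, edgeR). Without sham mouse 4 that call was lost. Sox4, a transcription factor needed for early B cell development, at chr13:28948919-28953713 on the minus strand, was scarce, at 5.84 CPM to 61.5 CPM with a median of 19.6 CPM, against 3.97 CPM to 29.3 CPM with a median of 11.99 CPM. It was higher in the cells with both genes in 7 of 8 mice (log2 change 1.06 ± 0.20, edgeR adjusted p = 0.0223), and the call was lost without DOCA-salt mouse 4.

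Across all 6426 genes tested, 50 were higher in the cells with both genes (0.778% of those tested, Vpreb3 and Cd24a among them) and 16 were lower (0.249%). Fam129c had the highest log2 change among the ranked genes, which leave out the rule's own; it encodes a B cell protein of the Niban family. It ran from 46.1 CPM to 195 CPM with a median of 88.6 CPM, against 28.4 CPM to 56.5 CPM with a median of 38.4 CPM in the other B cells (log2 change 1.04 ± 0.16, edgeR adjusted p = 0.00490). Pld4, an endolysosomal nuclease, had a median of 180 CPM against 96.9 CPM (log2 change 0.76 ± 0.098, adjusted p = 0.000972). Both were higher in 8 of 8 mice, and 3.31% of all genes tested moved the same way in 8 of 8 mice.

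Further genes were higher in 8 of 8 mice with smaller steps. Chchd10, a mitochondrial protein gene, changed by 0.54 on the log2 scale, and Vpreb3 is its neighbour, with 5309 bases between them on the same strand; whether reads of the neighbouring genes mix was not tested. Hcls1, an actin regulator phosphorylated after antigen receptor engagement, changed by 0.44, Crip1, a LIM domain protein gene, by 0.42, Rogdi by 0.58 and Tmem123 by 0.36. Xbp1, the transcription factor of the unfolded protein response, changed by 0.42 and Lgals9, which encodes galectin-9, by 0.41; these calls were lost in 12 of 17 and 7 of 18 alternative fits. The call of Rogdi was lost in 4 of 17, that of Tmem123 in 5 of 18 and that of Hcls1 in 1 of 18, and without DOCA-salt mouse 4 or sham mouse 4 those of Rogdi and Tmem123 were among the losses. Ptpn6, which encodes the phosphatase SHP-1, rose by 0.33 ± 0.063 (adjusted p = 0.0223) and was the only 1 of 15 antigen receptor signalling genes called. Tnfrsf13b, which encodes TACI, a receptor for BAFF and APRIL, rose by 0.35 ± 0.066 (adjusted p = 0.0208), the only 1 called of 12 measured survival genes. The calls of Ptpn6 and Tnfrsf13b were each lost in 4 of 18 alternative fits, among them those without DOCA-salt mouse 4 and without sham mouse 4.

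Of 15 genes listed for mature follicular B cells, 2 fell and none rose in the cells with both genes, with a median log2 change of -0.095 against a median of -0.0047 over all genes tested. Cd55, the complement decay-accelerating factor, ran from 435 CPM to 617 CPM with a median of 461 CPM, against 539 CPM to 672 CPM with a median of 630 CPM in the other B cells. The ranges overlap between mice, but it was lower in 8 of 8 mice (log2 change -0.30 ± 0.056, edgeR adjusted p = 0.0161). The call was lost in 6 of 18 alternative fits, among them those without DOCA-salt mouse 2, sham mouse 2 or sham mouse 4. Fcer2a and Ighd did not pass, with log2 changes of -0.27 (adjusted p = 0.0585) and -0.25 (adjusted p = 0.0734, both edgeR).

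The other lower genes had mixed roles. Spag9, a scaffold of JNK signalling, changed by -0.56, Ephx1, an epoxide hydrolase, by -0.55, and Slc38a1, an amino acid transporter, by -0.36 on the log2 scale. Dennd4a changed by -0.32, the cytoskeletal linker Macf1 by -0.32, the splicing factor Srsf7 by -0.30, Ripor2 by -0.27 and Shisa5 by -0.19. Each was lower in 8 of 8 mice and each lost its call in 6 to 13 alternative fits. Malat1, a nuclear noncoding RNA, changed by -0.19 (adjusted p = 0.000462, edgeR), and its change was 0.039 when every cell was thinned to 1500 UMIs.

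**Figure D1:**
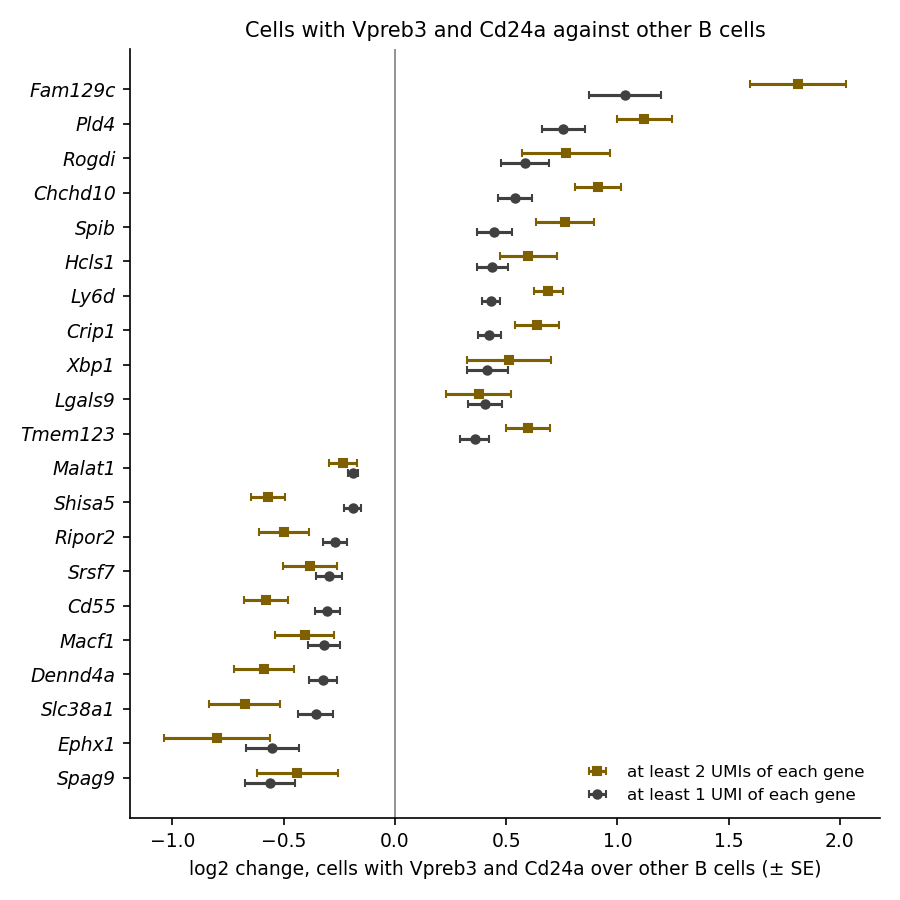
The horizontal axis gives the log2 change in B cells with Vpreb3 and Cd24a over other B cells, with SE, for 21 genes ranked from all tested, at 1 UMI of each gene (circles) and at 2 UMIs of each gene (squares). Cd55 moves to -0.58 and Fam129c to 1.81 with at least 2 UMIs of each gene.

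How many UMIs of the 2 genes a cell had went with how far it stood from the other B cells. With at least 2 UMIs of each gene, a limit chosen after the data were seen, 72 genes were higher and 69 lower of 4862 tested. At 1 UMI of each, 6426 were tested, so the counts rest on different gene sets. The fit at 2 UMIs was against the same other B cells and kept the rule's own genes. Cells with both genes but only 1 UMI of either were on neither side of this fit. Ly6d then changed by 0.69, Spib by 0.77, Pld4 by 1.12 and Fam129c by 1.81 on the log2 scale. On the lower side Ighd changed by -0.71 (adjusted p = 0.00212), Fcer2a by -0.70 (adjusted p = 0.0276) and Cd55 by -0.58 (adjusted p = 0.00394, all edgeR). Not all follicular genes fell: Tnfrsf13c, of the same mature follicular list, rose by 0.56 (edgeR adjusted p = 0.0209). Iglc1, a lambda light chain constant gene named after its values were seen, changed by 1.59 (adjusted p = 0.000115).

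The same gradient was seen when the cells were divided by their summed Vpreb3 and Cd24a UMIs, which is a description because the sum comes from the rule. Levels here are CPM of all UMIs of the cells, without TMM scaling. Ly6d averaged 4006 ± 1133 CPM in cells with a sum of 6 or more, 2501 ± 335 in cells with a sum of 2 or 3 and 2234 ± 244 in the other B cells (SD, n = 8 mice). Cd55 averaged 377 ± 97.3, 563 ± 103 and 603 ± 44.4 CPM in the same order, and the high-sum cells were the lower in 8 of 8 mice. Fcer2a averaged 334 ± 165, 601 ± 103 and 637 ± 89.3 CPM. Cr2, another follicular gene, averaged 97.6 ± 57.4, 131 ± 38.0 and 119 ± 29.1 CPM, and the high-sum cells were the lowest in only 4 of 8 mice.

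Ighd was also lower in the high-sum cells in 8 of 8 mice, at 240 ± 75.5 CPM against 429 ± 68.1 in those with a sum of 2 or 3. Ighm, the IgM heavy chain gene, averaged 1454 ± 771 against 914 ± 146 and was higher in 7 of 8 mice. DOCA-salt mouse 2 raised that mean, at 3189 CPM from 16 high-sum cells, with sham mouse 4 next at 1587 CPM. Ccr7, a lymph node homing receptor gene, averaged 617 ± 289 against 603 ± 147 and was higher in 4 of 8 mice. The high-sum cells numbered 26, 16, 5 and 36 in DOCA-salt mice and 32, 42, 29 and 31 in sham mice. The values of DOCA-salt mouse 3 thus rest on 5 cells, with 6 UMIs of Spib, 3 of Ighd and 1 of Fcer2a.

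**Figure D2:**
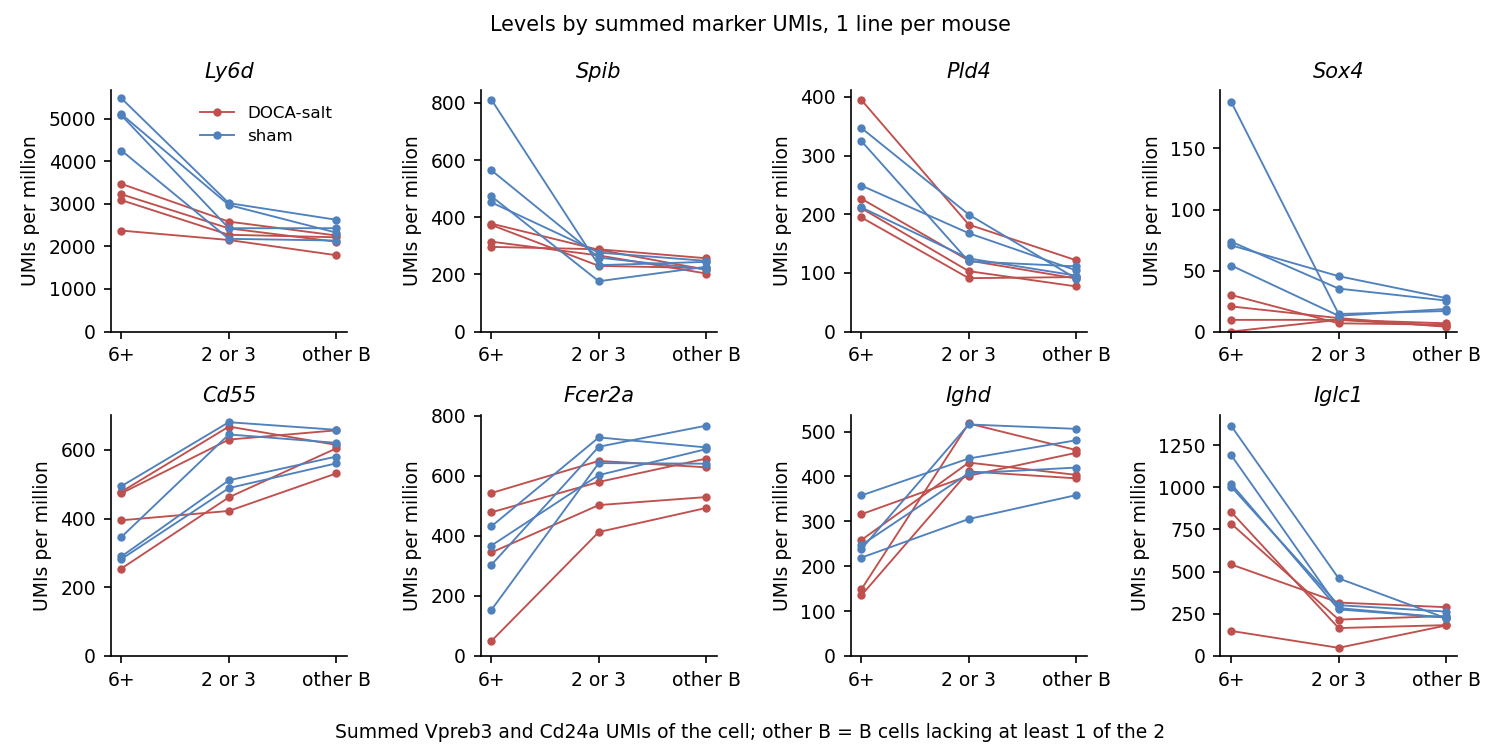
Vertical axes give CPM and horizontal positions the summed Vpreb3 and Cd24a UMIs of the cells (6 or more, 2 or 3) and the other B cells, with 1 line per mouse, DOCA-salt in red and sham in blue. Ly6d, Spib and Pld4 are highest and Cd55, Fcer2a and Ighd lowest at 6 or more UMIs in each of the 8 mice, while Iglc1 is highest there in 7 of 8 and Sox4 in 6 of 8.

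Several gene groups gave no call between the cells with both genes and the other B cells. None of 8 measured marginal zone and B-1 genes, 13 early response genes, 10 MHC class II genes, 7 corticosteroid response genes, 6 cell cycle genes and 6 interferon genes passed the test. Nr4a1, an early gene of antigen receptor signalling, stood at 38.1 ± 23.4 CPM against 63.0 ± 27.4 CPM (log2 change -0.80, edgeR adjusted p = 0.0504). Among lists of other cell types, Apoe, a macrophage gene, was lower (log2 change -0.49, adjusted p = 0.0223; the call was lost without DOCA-salt mouse 4 or sham mouse 1, 2 or 4) and no T cell, NK cell or neutrophil gene was called. None of the 16 surface antibodies differed after adjustment. The lowest unadjusted p was 0.0312 for NK1.1 (adjusted p = 0.5, exact within-mouse permutation test).

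DOCA-salt hearts held a smaller share of these cells among all leukocytes, while their share among B cells overlapped between the groups. The other B cells were also a smaller share of leukocytes, at 31.5%, 35.4%, 30.04% and 28.1% in DOCA-salt mice, against 42.8%, 40.97%, 39.6% and 38.03% in sham mice. The cells with both genes were 9.76%, 7.91%, 7.83% and 9.68% of leukocytes in the 4 DOCA-salt mice, against 12.3%, 13.1%, 12.4% and 11.4% in the 4 sham mice. The groups did not overlap, and the means were 8.79% ± 1.07 and 12.3% ± 0.719 (SD, n = 4 each; exact two-sided permutation p = 0.0286, the smallest that 4 against 4 allows, and adjusted p = 0.0857 over 3 shares). Of B cells they were 23.1%, 17.7%, 19.6% and 24.9% in DOCA-salt mice, against 22.04%, 23.6%, 23.4% and 22.5% in sham mice. Those groups overlapped, with means of 21.3% ± 3.30 and 22.9% ± 0.748 (exact permutation p = 0.371, adjusted p = 0.371). Leaving out any 1 mouse brought the exact p for the share of leukocytes to 0.0571, the smallest that 3 against 4 allows.

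DOCA-salt cells were sequenced more deeply, which raises the chance of seeing a UMI of each gene. With every cell thinned to 1500 UMIs, which left out 695 DOCA-salt and 524 sham cells of lower depth, the share of B cells was 9.69%, 6.36%, 13.8% and 10.7% in DOCA-salt mice, against 12.2%, 12.3%, 15.1% and 14.2% in sham mice. DOCA-salt mouse 3 lay within the sham range, and the means were 10.1% ± 3.08 and 13.4% ± 1.42 (exact permutation p = 0.114, adjusted p = 0.171). At 1000 UMIs per cell the means were 4.92% and 7.96%, and at 2500 UMIs 18.6% and 23.4%, both without overlap (exact permutation p = 0.0286, n = 4 each). The limit of 1500 UMIs was the planned one, so the equal-depth difference is not called.

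The share was also taken at higher limits. With at least 2 UMIs of each, they were 5.46%, 2.92%, 3.85% and 5.32% of B cells in DOCA-salt mice, against 7.47%, 7.24%, 10.2% and 6.13% in sham mice. All 4 DOCA-salt mice lay below all sham mice, with means of 4.39% ± 1.22 and 7.76% ± 1.73 (exact permutation p = 0.0286, n = 4 each), under a limit chosen after the data were seen. With at least 3 UMIs of each, they were 1.07%, 0.819%, 0.641% and 2.06% in DOCA-salt mice, against 2.91%, 3.25%, 5.41% and 1.84% in sham mice, and DOCA-salt mouse 4 lay above sham mouse 4 (exact permutation p = 0.0571, n = 4 each). At equal depth the share with 2 UMIs of each was 1.06% ± 0.531 in DOCA-salt and 2.84% ± 0.978 in sham (exact permutation p = 0.0286, n = 4 each). Cells with a sum of 6 or more were 2.65% ± 1.24 of B cells in DOCA-salt mice and 6.37% ± 1.67 in sham mice, given as a description. An earlier grouping of these data had already shown fewer DOCA-salt cells in a cluster led by Iglv1 with Vpreb3 and Cd24a, so this is not independent support for it.

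**Figure D3:**
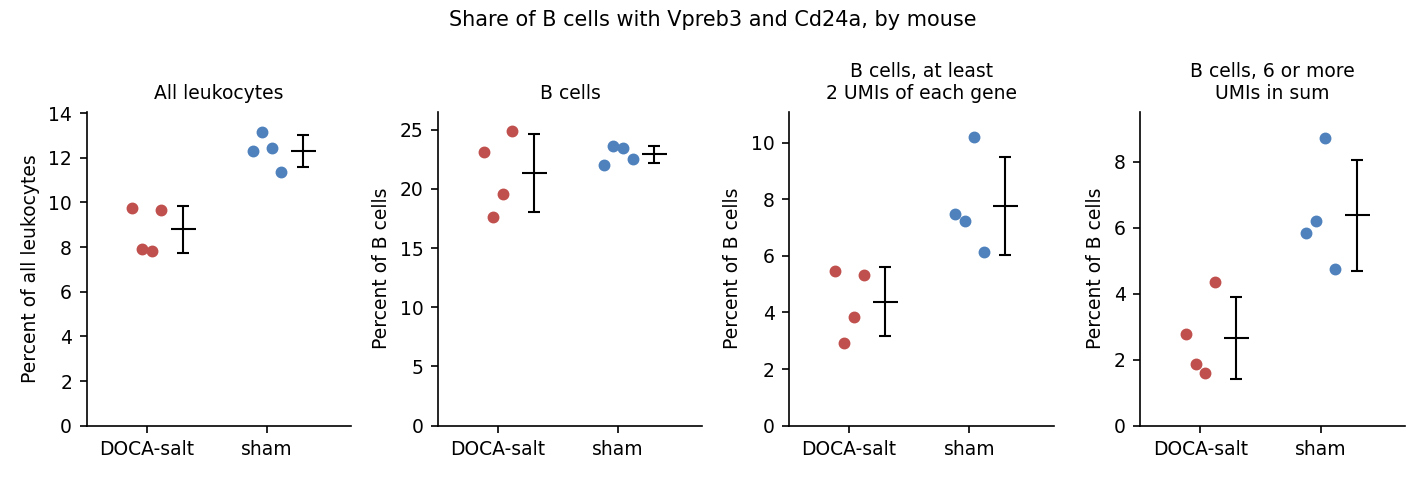
Each point is 1 mouse, DOCA-salt left of sham, with the mean and SD beside it, and vertical axes give the share in percent. DOCA-salt mice lie below all sham mice as a share of all leukocytes, at 2 UMIs of each gene and at a sum of 6 or more, and overlap them as a share of B cells at 1 UMI of each.

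Neutrophil RNA was found in a larger share of cells in DOCA-salt than in sham mice, in these and in the other B cells. An S100a8 or S100a9 UMI was found in 8.61% to 18.03% of the cells with both genes in DOCA-salt mice and 0% to 1.28% in sham mice, and in 9.83% to 14.2% of the other B cells in DOCA-salt mice and 1.02% to 2.14% in sham mice. Summed levels in this paragraph are CPM of all UMIs of the cells, without TMM scaling. In the cells with both genes, the summed level of 7 neutrophil genes was 42.8 to 845 CPM in DOCA-salt mice and 0 to 9.70 CPM in sham mice, with Camp and Ngp at 0. In the other B cells the groups overlapped, at 68.2 to 199 CPM in DOCA-salt mice and 8.47 to 162 CPM in sham mice. A few of the cells with both genes held most of their neutrophil RNA: 1 cell had 307 of the 337 S100a8 and S100a9 UMIs of DOCA-salt mouse 1, 1 cell had 123 of the 135 of DOCA-salt mouse 3 and another had 307 of the 590 of DOCA-salt mouse 4. Neutrophils carry Cd24a RNA too. Without any cell holding an S100a8 or S100a9 UMI, the share of leukocytes was 8.89% ± 1.02 in DOCA-salt and 12.5% ± 0.731 in sham (exact permutation p = 0.0286, n = 4 each), and the share of B cells was 21.02% ± 3.32 and 23.1% ± 0.732 (p = 0.343). The summed level of 6 genes listed for heart tissue cells was 72.6 to 102 CPM in DOCA-salt and 107 to 210 CPM in sham. Most of these UMIs were of Pecam1, with 180 in DOCA-salt and 168 in sham, and Dcn had 0 and 36. The sum therefore mainly reads 1 gene and is no measure of heart tissue RNA. Doublet calls by Scrublet marked 2.68% of the DOCA-salt and 1.19% of the sham cells.

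Within the cells, DOCA-salt against sham gave 4 higher genes (0.073% of 5483 tested) and 12 lower genes (0.219%). Sox4 had the lowest log2 change among them. It stood at 11.8, 8.25, 5.97 and 12.8 CPM in DOCA-salt mice, against 44.6, 51.3, 26.8 and 62.5 CPM in sham mice. The groups were far apart, although the counts behind them were only 22 UMIs in DOCA-salt and 72 UMIs in sham. The log2 change was -2.15 ± 0.31 (edgeR adjusted p = 0.0052), and it kept its call in all 13 alternative fits that tested it. Fewer cells with Sox4 and less Sox4 per cell cannot be told apart in these summed counts.

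The other 3 measured genes of the immature list had lower values in DOCA-salt without passing the test. Ly6d stood at 2807, 2710, 2330 and 3037 CPM in DOCA-salt mice, against 3125, 4000, 3753 and 3625 CPM in sham mice (log2 change -0.41 ± 0.092, edgeR adjusted p = 0.0835). Spib stood at 271, 272, 287 and 308 CPM in DOCA-salt mice, against 309, 349, 479 and 368 CPM in sham mice (log2 change -0.39 ± 0.13, adjusted p = 0.273). Ebf1, a transcription factor of B cell specification, averaged 1338 ± 79.8 CPM in DOCA-salt and 1633 ± 94.3 CPM in sham. None of the 3 overlapped between the groups, as held for 6.64% of all genes tested. Genes of the list below the low-count filter went both ways, over 634 DOCA-salt and 506 sham cells. Cd93 had 18 UMIs in DOCA-salt and 7 in sham and Il7r 15 and 8, while Lef1 had 12 and 17 and Myb 5 and 8. As a description, Vpreb3 averaged 599 ± 23.4 CPM in DOCA-salt and 786 ± 114 CPM in sham, and Cd24a 578 ± 38.7 and 851 ± 147 CPM. High-sum cells made up 12.1% ± 3.93 of the cells in DOCA-salt and 27.7% ± 6.76 in sham (SD, n = 4 each), and their part in these differences was not tested.

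Of 12 genes listed for quiescence and mRNA decay, 3 fell and none rose, with a median log2 change of -0.35 against 0.0011 over all genes. Btg1, an antiproliferative cofactor of mRNA decay, stood at 1702, 1623, 1858 and 1646 CPM in DOCA-salt mice, against 2730, 2726, 2554 and 2760 CPM in sham mice. The groups were separate, with a log2 change of -0.66 ± 0.070 (edgeR adjusted p = 0.000585). Zfp36l2, an mRNA decay factor, averaged 278 ± 8.57 CPM in DOCA-salt and 493 ± 69.995 CPM in sham (log2 change -0.83 ± 0.12, adjusted p = 0.00361), and its call was lost in 2 of 17 alternative fits. Malat1 averaged 5677 ± 235 and 9546 ± 520 CPM (log2 change -0.75 ± 0.061, adjusted p = 4.31e-05).

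Otulin, the deubiquitinase of linear ubiquitin chains, stood at 45.6, 57.7, 41.8 and 51.2 CPM in DOCA-salt mice, against 137, 113, 103 and 123 CPM in sham mice, without overlap (log2 change -1.25 ± 0.16, edgeR adjusted p = 0.00347). Gnai2, an inhibitory G protein subunit that couples chemokine receptors, averaged 411 ± 52.8 CPM in DOCA-salt and 700 ± 54.3 CPM in sham (log2 change -0.78 ± 0.11, adjusted p = 0.00361). Abhd17a, a protein depalmitoylase gene, changed by -1.07, Ucp2, a mitochondrial carrier, by -0.69 and Fcrla, an Fc receptor-like B cell protein, by -0.67 on the log2 scale. The call of Fcrla was lost in 6 of 17 alternative fits, among them those without DOCA-salt mouse 2, DOCA-salt mouse 4 or sham mouse 4, that of Otulin in 3 of 16, and those of Abhd17a and Ucp2 when cells were thinned.

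Tsc22d3, the glucocorticoid-induced leucine zipper gene, stood at 1201, 969, 1284 and 1019 CPM in DOCA-salt mice, against 1544, 1641, 1664 and 1787 CPM in sham mice. The groups did not overlap, and the log2 change was -0.58 ± 0.097 (edgeR adjusted p = 0.0183). The call was lost in 5 of 17 alternative fits, among them those without DOCA-salt mouse 2, DOCA-salt mouse 4 or sham mouse 4. It was the only 1 called of 5 measured corticosteroid response genes. Glcci1, a glucocorticoid-induced transcript, changed by -0.92 (adjusted p = 0.0279) and lost its call in 9 of 15 alternative fits. Wfdc21, named because the lower calls number few, changed by -1.94 (adjusted p = 0.0456) with overlapping groups.

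The 4 higher genes were Apoe and the ribosomal protein genes Rps19, Rpl14 and Rpl13a, the last 3 named after their values were seen. Apoe stood at 393, 419, 406 and 279 CPM in DOCA-salt mice, against 217, 217, 134 and 183 CPM in sham mice, without overlap (log2 change 0.96 ± 0.17, edgeR adjusted p = 0.0219). The call was lost in 5 of 17 alternative fits, among them those without DOCA-salt mouse 1, DOCA-salt mouse 2 or sham mouse 4. Summed levels here are CPM of all UMIs of the cells, without TMM scaling. As a description, since the rule caps them at 2 UMIs per cell, the macrophage complement genes C1qa, C1qb and C1qc were summed. Their sum stood at 155 to 183 CPM in DOCA-salt cells and 138 to 151 CPM in sham cells, without overlap. Each of the 3 genes alone overlapped between the groups. The summed level of 9 macrophage and monocyte genes, Apoe among them, was 712 to 917 CPM in DOCA-salt and 329 to 1379 CPM in sham. Lyz2, another of the 9, stood at 1001 CPM (TMM-scaled) in sham mouse 1 and at 143 to 195 CPM in the other sham mice. In the other B cells the same sum was 790 to 1009 CPM in DOCA-salt and 545 to 683 CPM in sham, without overlap. The part of macrophage RNA in the Apoe change was not tested. The ribosomal genes changed by 0.49 (Rps19), 0.44 (Rpl14) and 0.42 (Rpl13a) on the log2 scale.

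**Figure D4:**
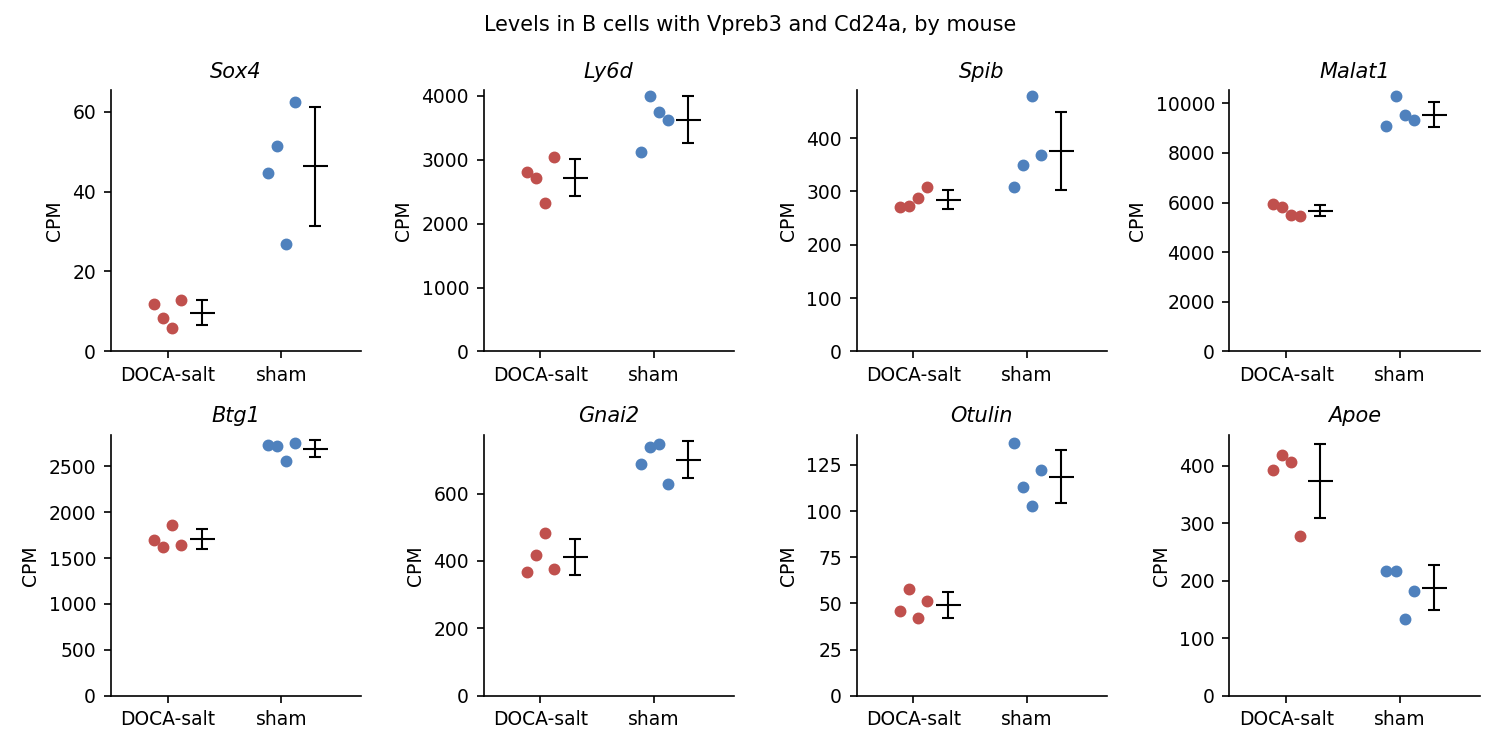
Vertical axes give CPM in B cells with Vpreb3 and Cd24a, with 1 point per mouse, DOCA-salt left of sham, and the mean and SD beside the points. The groups do not overlap for any of the 8 genes, and Ly6d and Spib missed the adjusted threshold.

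Mature follicular genes gave no call between the groups. Cr2, which encodes complement receptor CD21, stood at 155, 142, 155 and 182 CPM in DOCA-salt mice, against 92.1, 77.9, 130 and 79.3 CPM in sham mice (log2 change 0.80 ± 0.17, edgeR adjusted p = 0.0707). Fcer2a had a log2 change of 0.001 (edgeR adjusted p = 1). None of 13 early response, 10 MHC class II, 16 trafficking, 12 survival or 5 interferon genes was called. No antibody differed after adjustment: PD-1, TCRyd and TIGIT were lower and CD44 higher in all 4 DOCA-salt mice than in all sham mice (exact permutation p = 0.0286, adjusted p = 0.114 for each). CD44 took 361626 ± 32177 CPM of all antibody counts in DOCA-salt and 306239 ± 10978 in sham.

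In the other B cells of the same mice and libraries, DOCA-salt against sham gave 17 higher genes (0.208% of 8183 tested) and 65 lower genes (0.794%). Of the 16 genes called in the cells with both genes, 14 were also called in the other B cells, all but Wfdc21 and Rpl14. Sox4 changed by -2.20, Malat1 by -0.79, Btg1 by -0.66 and Tsc22d3 by -0.56 in the other B cells. Otulin changed there by -1.03, Gnai2 by -0.64 and Apoe by 0.60. Ly6d changed by -0.19 and Spib by -0.08 there, and the difference of the effects did not pass for either (edgeR interaction, adjusted p = 0.266 and 0.895). Of 7115 genes tested for a difference of the DOCA-salt effect, 0 were higher and 1 was lower (0.0141%) by edgeR, with an unadjusted p under 0.05 for 5.47%; the lower gene was the immunoglobulin V gene Ighv5-12.

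Fewer DOCA-salt than sham cells read mostly lambda V genes. A first measure, the share of lambda among light chain constant region UMIs, was 73.8% ± 2.66 in the cells and 71.5% ± 2.22 in the other B cells (SD, n = 8), with a lambda UMI majority in most cells of both classes, so it did not read which chain a cell used. Cells were therefore counted by whether lambda V gene UMIs exceeded kappa V gene UMIs, a measure chosen after the data were seen. Such lambda cells were 4.17%, 6.62%, 4.92% and 4.37% of the cells with both genes in DOCA-salt mice, against 11.6%, 9.43%, 11.5% and 8.16% in sham mice. The groups did not overlap, with means of 5.02% ± 1.12 and 10.2% ± 1.67 (exact permutation p = 0.0286, n = 4 each).

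In the other B cells the lambda share was 5.42% ± 0.846 in DOCA-salt and 4.87% ± 0.703 in sham (exact permutation p = 0.429, n = 4 each). The difference between the effects had an exact permutation p of 0.0286; without any 1 mouse both this p and that for the cells with both genes were 0.0571, the smallest that 3 against 4 allows. The counts were small, at 3 to 10 lambda cells per DOCA-salt mouse and 9 to 15 per sham mouse. Over the 8 mice, the cells with both genes held 7.60% ± 3.06 lambda cells and the other B cells 5.15% ± 0.778, which did not differ past the threshold (exact within-mouse permutation p = 0.0938). The Iglv1-led cluster of the earlier grouping overlaps with this pattern, so it is no independent support.

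**Figure D5:**
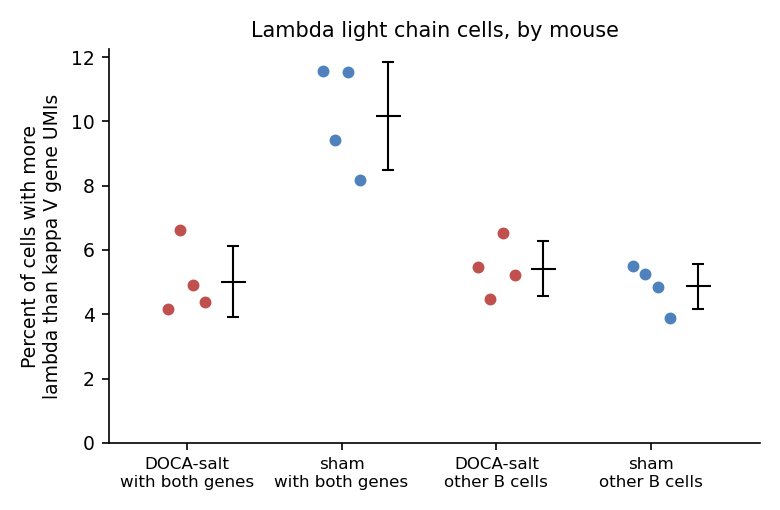
The vertical axis gives the percent of cells with more lambda than kappa V gene UMIs, with 1 point per mouse, DOCA-salt left of sham, and the mean and SD beside the points. Sham mice stand at 8.16% to 11.6% in B cells with both genes, above the DOCA-salt mice, and the groups overlap in the other B cells.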

How the data were processed

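The authors deposited filtered gene-by-cell matrices of UMI counts for genes, hashtags and surface antibodies, 1 per group, with text tables of barcodes and feature names; per the file headers they were written by Cell Ranger 3.1.0, and per the submitters' processing notes mm10 was the build and Seurat 4 was also used. The feature and barcode identifiers are deposited text and serve as other labels, not measurements. Cells were kept with at least 200 genes, at most 10% mitochondrial UMIs and a top hashtag at least 2 times the second; each hashtag is 1 mouse, 4 per group, and no doublets were removed. The members, gene lists and tests were chosen with earlier results of these data known. UMI counts were summed per mouse and cell class and tested with edgeR 4.0.16 (R 4.3.3; TMM, filterByExpr, quasi-likelihood, Benjamini-Hochberg, threshold 0.05), with the mouse as a block between classes; DESeq2 1.42.0 was an alternative. The block rests on both classes coming from the same mouse. Summed counts were tested on simulated data first. Shares, antibodies and light chains used exact permutation tests over mice (SciPy 1.17.1). Kept cells held 27737028 UMIs in DOCA-salt and 12756400 in sham; summed counts per mouse ran from 174654 to 748257 UMIs in the cells described. Ranked genes were at most 12 per direction, with adjusted p under 0.05, a mean of at least 50 CPM and the same direction in all mice or no overlap; genes of the rule or of antigen receptors, globins, sex-linked, mitochondrial and ribosomal protein genes and numbered gene models were not ranked. Ly6d, Spib and up to 4 genes per list were added. Some genes and an antibody are not reported here. Positions come from GENCODE M21, matched by gene ID for 30934 of 31053 genes.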

Additional observations from a re-analysis of the deposited data

Results flagged for a closer look

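In groups of 4 mice, a mouse far from the other 3 is flagged by chance in about 1 of 20 groups, and many groups were looked at. In the cells with both genes, Fam129c was highest in mouse 3 of each group, at 95.6 CPM in DOCA-salt and 197 CPM in sham. DOCA-salt mouse 2 was lowest for Chchd10, at 206 CPM, and highest for Xbp1, at 128 CPM; 1 cell of that mouse had 9572 of its 15108 UMIs from immunoglobulin V genes and 323 Jchain UMIs. DOCA-salt mouse 3, with the fewest cells, was highest for Hcls1, at 263 CPM. Sham mouse 3 was lowest for Btg1, at 2554 CPM. Sham mouse 2 was lowest for Glcci1, at 86.2 CPM.

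The DOCA-salt effect on Ighv5-12 differed between the cells with both genes and the other B cells, by a fitted log2 value of -10.98 (edgeR interaction, adjusted p = 0.000637). The fitted value rests on zeros and is no measure of size. In the cells with both genes it had 0 UMIs in all 4 DOCA-salt mice, against 7, 56, 19 and 12 UMIs in sham mice, which came from 2, 4, 1 and 1 cells. In the other B cells it had 41, 5, 0 and 65 UMIs in DOCA-salt mice, against 0, 10, 2 and 5 UMIs in sham mice. The call was lost without cells holding a C1q UMI and at 2 UMIs of each gene.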

How the results depend on the processing

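The DOCA-salt minus sham difference in the share of leukocytes, -3.53 points, kept its direction and an unadjusted exact p of 0.0286 in every alternative with all mice (adjusted p = 0.0857 as reported), and ran from -3.85 to -3.21 (exact permutation p = 0.0571) without 1 mouse. The share of B cells passed only at 2 UMIs of each gene (-3.38 points, unadjusted) and ran from -2.80 to -0.38 without 1 mouse. At equal depth it passed with Cd24a of at least 2 UMIs (-2.89), both genes of at least 2 UMIs (-1.77), and thinning to 1000 (-3.03) or 2500 UMIs (-4.72), and ran from -4.51 to -2.02 without 1 mouse. The lambda constant region measure passed between classes when counted per cell (4.74 points); between groups it reversed when counted per cell (0.586) and passed by V gene (-5.16); without 1 mouse it ran from -3.65 to -1.73.

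Counts of higher and lower genes against the other B cells were 50 and 16; they were 128 and 144 with no filter on low counts, 33 and 10 with no replicate block, 27 and 7 without cells holding a C1q UMI, and 25 and 51 after thinning to 1500 UMIs. At 2 UMIs of each gene the lower count was 69. Without 1 mouse they ran from 19 to 51 and from 2 to 16. Malat1 reversed to 0.0393 after thinning. Counts for DOCA-salt against sham in these cells, 4 and 12, were 55 and 73 with no filter and 1 and 4 after thinning; the higher count was 9 by DESeq2 and 7 at 2 UMIs of each gene. Without 1 mouse they ran from 2 to 11 and from 9 to 18. In the other B cells, 17 and 65 became 99 and 159 with no filter and 3 and 28 without C1q cells; the higher count was 8 by DESeq2 and the lower 40 after thinning. Without 1 mouse they ran from 8 to 23 and from 31 to 58. For the difference of effects, 0 and 1 became 59 and 51 with no filter and 1 and 0 without C1q cells and at 2 UMIs of each gene, the higher count was 1 after thinning, and without 1 mouse they ran from 0 to 3 and from 1 to 3. The unadjusted p was under 0.05 for 389 genes, and DESeq2 gave 0 and 1. Thinned and stricter fits tested fewer genes. Against the other B cells 6426 genes were tested as reported, 15026 with no filter, 4776 without C1q cells, 3332 after thinning and 4862 at 2 UMIs of each gene. For DOCA-salt against sham in these cells the numbers were 5483, 13239, 3716, 1584 and 1741 in the same order. For the rest the cause was not tested.

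No antibody was called in any of 22 alternatives. No pairing between DOCA-salt and sham mice was possible because hashtag numbers link no DOCA-salt mouse to a sham mouse. With 61 to 216 cells per mouse, genes of low level were not detectable at this depth.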
